A study of Mus musculus with 4 samples.

Results

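Genes of the interferon response were compared between leukemic and normal mouse erythroid cells that had been set to differentiate. The group is defined by a list of gene names. It holds 47 genes, namely the IFITM family, the interferon receptors, the STAT and IRF transcription factors, sensors of foreign nucleic acid and genes that interferon induces. A gene was measured where at least 1 array feature was annotated to it alone, which gave 44 of the 47 genes, with 48 features, out of 19938 genes in all. The features of Isg15 and Gbp2 were shared with another gene, and these genes and Ifi44 were not analysed here.

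MEL is an erythroleukemia line, which was kept in serum with puromycin and then given estradiol for 48 hours to induce maturation. ES-EP are progenitors of red cells that were obtained from embryonic stem cells and were expanded with erythropoietin, insulin-like growth factor, dexamethasone and stem cell factor. Their differentiation ran for 24 hours with erythropoietin, insulin and mifepristone, which blocks the glucocorticoid receptor. Both groups consist of 2 cultures, A and B, with 1 array each. Cell origin, inducer, medium and hours differed together between the groups and cannot be told apart, and no undifferentiated culture was analysed here. Each system is represented by a single line, so the p-values measure only the spread between duplicate cultures.

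Interferons are secreted proteins that warn cells of infection. Type I interferons bind a receptor made of IFNAR1 and IFNAR2, and interferon gamma binds a receptor made of IFNGR1 and IFNGR2. Through kinases of the JAK family the receptors activate STAT proteins, and a complex that holds STAT2 and IRF9 binds a DNA element, the interferon-stimulated response element (ISRE), in the promoters of many antiviral genes. Some of these genes are also transcribed without interferon, through other factors or at a basal level.

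The duplicates of each group were close to each other and the groups were far apart. Across 28944 features the arrays correlated with r = 0.997 between the MEL duplicates, 0.998 between the ES-EP duplicates and 0.948 to 0.949 between groups, where features are not independent replicates. No member feature was 2-fold apart between duplicates, and the largest gap was 0.38 between the MEL and 0.41 between the ES-EP arrays on the log2 scale. Of 12 erythroid marker genes 11 were measured, and 10 of these had log2 values above 8 on every array. By the test alone (adjusted p under 0.05) 9 of the 11 were lower in MEL (81.8%, against 36.9% of all genes) and 2 higher, and 3 were at least 2-fold lower, namely the heme synthesis gene Alas2 (-1.33), Hemgn (-1.08) and the anion exchanger Slc4a1, at 6.98 and 7.10 in MEL against 12.45 and 12.51 in ES-EP cells. Of the 13 markers of macrophages and dendritic cells, cells with strong interferon programmes, 5 were lower in MEL by the same test (38.5%, close to the share of all genes) and 0 were higher. Their summed log2 values were 62.4 and 62.8 on the MEL arrays, below the 67.2 and 68.0 of the ES-EP arrays. Single values of these markers ran from 3.80 to 7.26. The highest were those of Cd68, at 6.13 and 6.62 in MEL and 7.26 and 7.20 in ES-EP cells. The table gives no detection calls, so none of these can be said to be at 0.

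MEL cells had much more RNA of Ifitm2, Ifitm3, Cmpk2 and Ifi27 than ES-EP cells, while most other interferon-related genes differed little. A gene was called where its brightest feature differed by at least 2-fold with an adjusted p under 0.05 (limma, over all 28944 features). By this rule 10 of the 44 genes (22.7%) were higher, where 7.38% of all genes were, and 2 (4.55%) were lower, where 4.93% of all genes were. Without the fold criterion 18 were higher (40.9%, against 21.8% of all genes) and 8 were lower (18.2%, against 36.9%), and 18 did not pass. After cyclic loess these counts were 20 and 6, against 29.0% and 24.5% of all genes. The median difference of the 44 genes was 0.00 on the log2 scale, beside -0.14 over all genes. In RNA from whole cultures, fewer expressing cells and less RNA per cell cannot be told apart.

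**Figure D1:**
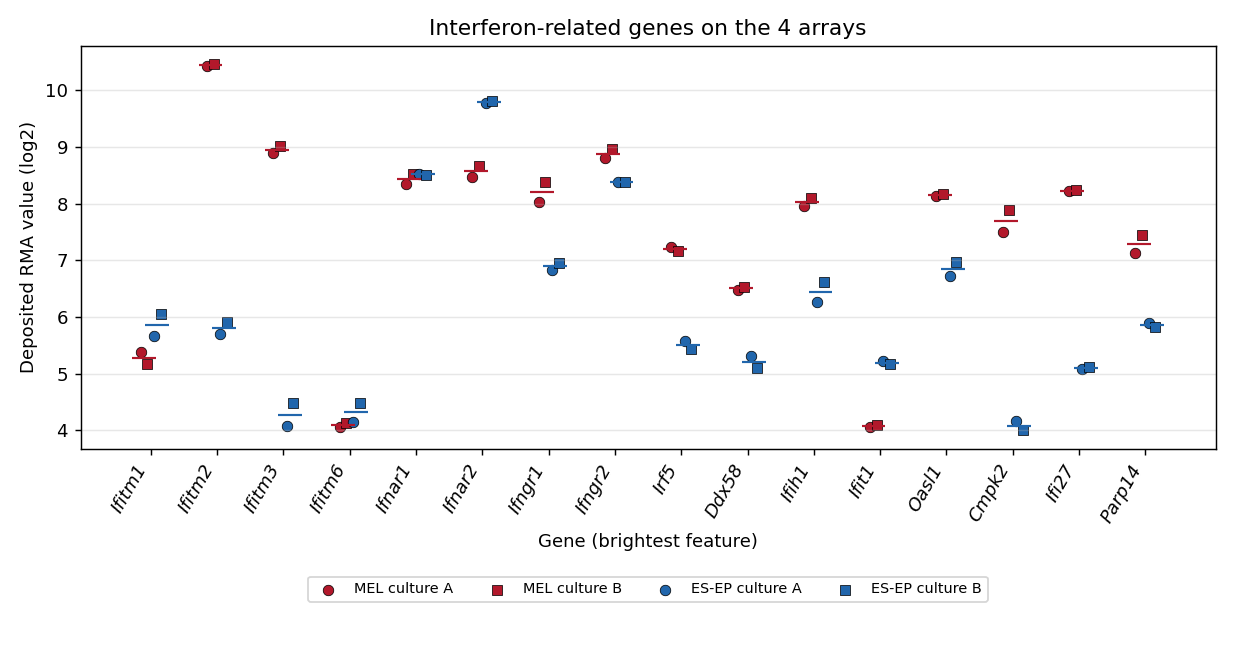
Deposited log2 values (vertical axis) of the 4 IFITM genes, the 4 receptor genes and the other genes called at least 2-fold different, with 1 point for each array and a line at each group's mean. The MEL points of Ifitm2, Ifitm3, Cmpk2 and Ifi27 stand 3.13 to 4.67 above the ES-EP points in their means, and the duplicates of each group lie close together.

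**Figure D2:**
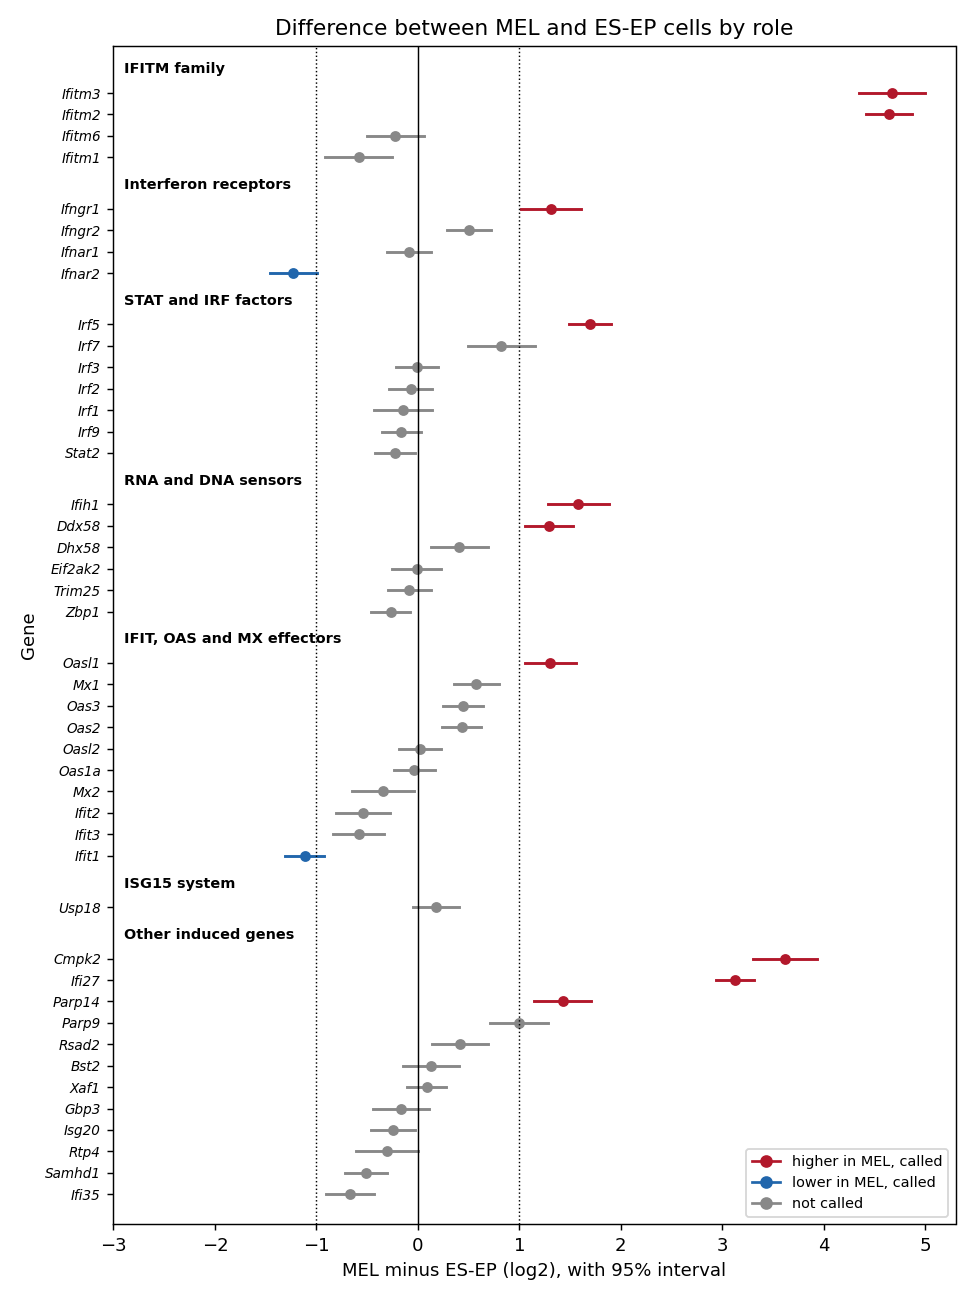
Difference of MEL minus ES-EP on the log2 scale for the 44 measured genes, grouped by role, with the 95% interval of the moderated fit (bars) and dotted lines at 2-fold. In red are the 10 genes called higher, in blue the 2 called lower and in grey the other 32, which lie between -0.67 and 0.997.

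The IFITM genes encode small membrane proteins that hinder viruses from fusing with the cell. The 4 in the group divided into a pair that was far higher in MEL and a pair that was not. Ifitm3 (feature 10569017) had log2 values of 8.89 and 9.01 in MEL cultures A and B and of 4.07 and 4.48 in ES-EP cultures A and B. The groups were far from overlapping, and the difference of 4.67 ± 0.14 (SE, n = 2 per group) was 25.5-fold (limma, adjusted p = 3.99e-07). Ifitm2 was read by 3 features, which gave the same picture. The brightest (10383756) was at 10.44 and 10.46 in MEL and 5.71 and 5.90 in ES-EP cells, a difference of 4.64 ± 0.10 or 25.0-fold (adjusted p = 1.11e-07). The other 2 features differed by 4.90 and 4.33, which is 29.8-fold and 20.1-fold. IFITM genes are close in sequence, so signal from one may reach a feature of another, and the part of this in the values of Ifitm2 and Ifitm3 was not tested.

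Ifitm1 and Ifitm6 did not share that difference. Ifitm1 (10558769) was at 5.38 and 5.17 in MEL and 5.67 and 6.06 in ES-EP cells, so it was lower in MEL by a difference of -0.58 ± 0.14 (adjusted p = 0.0103). That test was no longer passed after quantile normalization, cyclic loess, or without MEL culture B or ES-EP culture B (adjusted p up to 0.0762), and the second feature of Ifitm1 differed by -0.07 (adjusted p = 0.494). Ifitm6 was at 4.06 and 4.13 in MEL and 4.15 and 4.48 in ES-EP cells, and its difference of -0.22, with a 95% interval of -0.50 to 0.06, did not pass (adjusted p = 0.154). In the gene order of assembly GRCm38.p6 the sequence is Ifitm5, Ifitm2, Ifitm1, Ifitm3 and Ifitm6 with no coding gene between them, so the gene that was not higher, Ifitm1, lies between the pair that was. Ifitm5, a bone-related member of the family at the cluster's edge, differed by 0.03 (adjusted p = 0.829). Ifitm7 and Ifitm10, also outside the group, were lower in MEL by less than 2-fold (-0.70 and -0.52, limma, adjusted p = 0.0029 and 0.0117).

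The promoters of Ifitm2 and Ifitm3 are shown because these genes had the largest differences, and both hold matches to the ISRE core. They are RefSeq sequences of build GRCm38.p6, written from 250 bases before the transcript start to 30 after it on the gene's own strand. Capitals mark matches to GAAANNGAAA or its reverse complement TTTCNNTTTC. The stretch of Ifitm2 is chr7:140955932-140956211, minus strand, and that of Ifitm3 is chr7:141010715-141010994, minus strand.
Ifitm2: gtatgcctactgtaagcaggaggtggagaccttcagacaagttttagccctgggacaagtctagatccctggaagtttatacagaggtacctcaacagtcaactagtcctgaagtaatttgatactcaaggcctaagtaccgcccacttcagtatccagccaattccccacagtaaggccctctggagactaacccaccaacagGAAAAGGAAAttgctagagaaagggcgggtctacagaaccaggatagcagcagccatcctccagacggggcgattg
Ifitm3: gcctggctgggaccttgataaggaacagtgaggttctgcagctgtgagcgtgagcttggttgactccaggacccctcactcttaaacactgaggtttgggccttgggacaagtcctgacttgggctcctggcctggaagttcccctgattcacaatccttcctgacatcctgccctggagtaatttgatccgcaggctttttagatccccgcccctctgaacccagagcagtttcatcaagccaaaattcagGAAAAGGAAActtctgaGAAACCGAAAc
Ifitm2 has 1 match, which begins 46 bases before the start, and Ifitm3 has 2, which begin at bases 3 and 20 of the transcript. The second match of Ifitm3 overlaps one to TTCNNNGAA, the core of the gamma-activated site (GAS) bound by STAT dimers. In the windows of Ifitm1 and Ifitm6 these ISRE letters do not occur.

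The 4 receptor genes went in different directions. Ifngr1, the ligand-binding chain of the interferon gamma receptor, was at 8.03 and 8.37 in MEL and 6.82 and 6.96 in ES-EP cells, 2.48-fold higher in MEL (1.31 ± 0.13, SE, n = 2 per group, adjusted p = 0.000121). Its partner Ifngr2, which carries the signal inward, was at 8.80 and 8.96 in MEL and 8.37 and 8.38 in ES-EP cells. It was higher by 0.51 (adjusted p = 0.00276), which is under 2-fold. Both chains for interferon gamma thus had higher signal in each MEL array than in either ES-EP array, as did 5731 of all 19938 genes.

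The chains of the type I receptor did not move with them. Ifnar2 was at 8.46 and 8.67 in MEL and 9.78 and 9.81 in ES-EP cells, 2.34-fold lower in MEL (-1.23 ± 0.10, adjusted p = 4.58e-05). Ifnar1 was at 8.35 and 8.52 in MEL and 8.53 and 8.51 in ES-EP cells, where the groups overlapped, and its difference of -0.08 had a 95% interval of -0.30 to 0.13 (adjusted p = 0.465). Ifnar2, Il10rb, Ifnar1 and Ifngr2 follow one another on chromosome 16 without another coding gene between them. Il10rb, a receptor chain shared by interleukin-10 and the interferons of type III, was lower by a similar amount to its neighbour Ifnar2 (-1.46 ± 0.09, 2.75-fold, adjusted p = 1.46e-05). Along this row the differences thus ran from -1.23 and -1.46 at one end to 0.51 at the other.

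**Figure D3:**
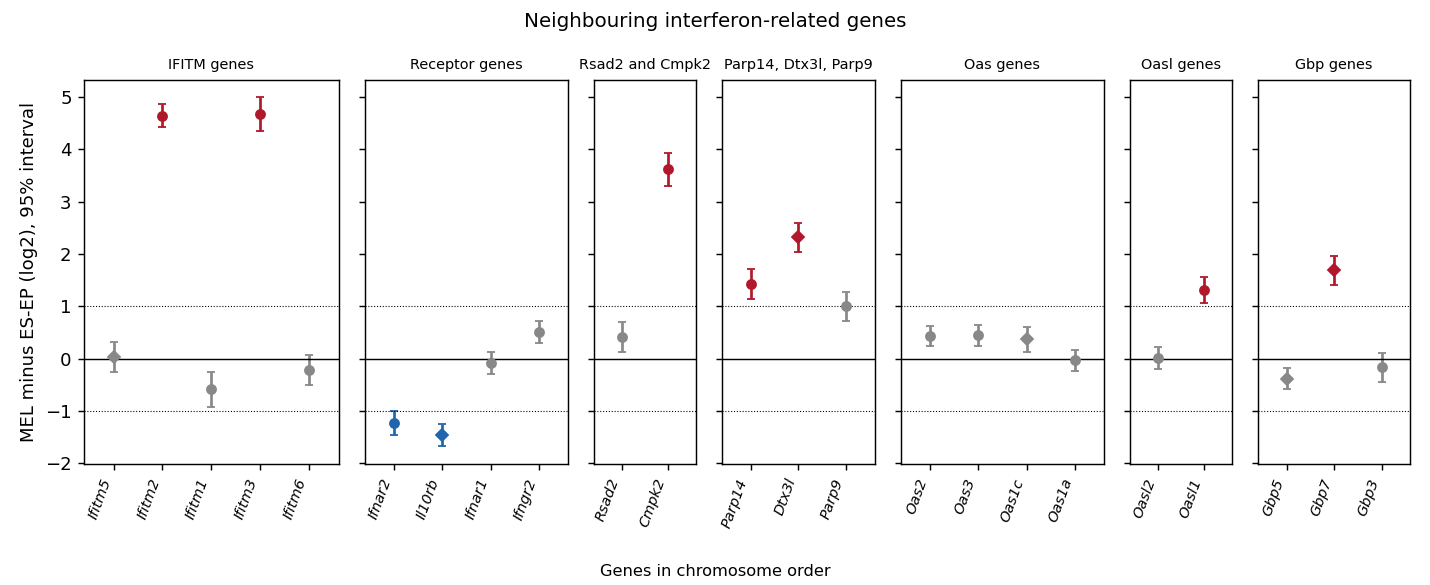
MEL minus ES-EP differences (log2, with 95% intervals) of interferon-related genes that lie side by side or close to each other, in chromosome order within each panel. Circles are genes of the group and diamonds are other pathway genes, red marks genes called higher, blue genes called lower and grey genes not called. Ifitm2 and Ifitm3 stand at 4.64 and 4.67 on either side of Ifitm1 at -0.58, and Cmpk2 stands at 3.62 beside Rsad2 at 0.41.

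Among the transcription factors only Irf5 was called, while the genes of the factor that carries the type I signal showed no call. Irf5, which acts downstream of Toll-like receptors in myeloid cells, was at 7.24 and 7.17 in MEL and 5.58 and 5.44 in ES-EP cells, 3.24-fold higher in MEL (1.70 ± 0.09, SE, n = 2 per group, adjusted p = 6.18e-06). Irf7, which amplifies the production of type I interferon and is itself induced by it, was at 6.59 and 6.96 in MEL and 5.83 and 6.07 in ES-EP cells. It was higher by 0.82 ± 0.14 (adjusted p = 0.0022). Stat2 (-0.23, adjusted p = 0.0505) and Irf9 (-0.16, adjusted p = 0.131), both parts of the ISRE-binding complex, did not pass, and Stat2 did in 7 of the 14 alternative settings. Irf3, which starts interferon transcription after a sensor fires, differed by -0.01 and the repressor Irf2 by -0.07, with 95% intervals of -0.22 to 0.19 and -0.28 to 0.14.

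Irf1, a factor quickly induced by interferon gamma, was not settled because its 2 features disagreed. Feature 10385870, the brighter over the 4 arrays, was at 5.50 and 5.60 in MEL and 5.53 and 5.86 in ES-EP cells, a difference of -0.15 (adjusted p = 0.337). Feature 10376060 was at 6.24 and 6.10 in MEL and 4.80 and 5.01 in ES-EP cells, 2.41-fold higher in MEL (adjusted p = 5.43e-05). With the mean of both features the difference was 0.56 (adjusted p = 0.0033).

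The main sensors of viral RNA, Ifih1 and Ddx58, were called higher in MEL, and of the 6 genes for sensors and their partners 3 passed the test as higher and 1 as lower, where 21.8% and 36.9% of all genes did. Ifih1, the sensor of long double-stranded RNA known as MDA5, was at 7.96 and 8.09 in MEL and 6.27 and 6.61 in ES-EP cells, 3.00-fold higher (1.58 ± 0.13, adjusted p = 4.61e-05). Ddx58, the RIG-I sensor of RNA ends, was at 6.47 and 6.53 in MEL and 5.32 and 5.10 in ES-EP cells, 2.45-fold higher (1.29 ± 0.10, adjusted p = 4.11e-05). Their relative Dhx58 was higher by 0.41 (adjusted p = 0.0212), a call that was lost without MEL culture B or ES-EP culture B (adjusted p up to 0.144). The kinase gene Eif2ak2, whose product PKR halts translation on double-stranded RNA, differed by -0.01 (95% interval -0.25 to 0.23), and Trim25, a ubiquitin ligase that helps RIG-I, by -0.08 (-0.29 to 0.13). Zbp1, a sensor of left-handed nucleic acid, was dim and lower by -0.27 (adjusted p = 0.0274), which did not hold in 7 of the alternatives, among them quantile normalization, centring and cyclic loess (adjusted p up to 0.629).

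The IFIT, OAS and MX genes encode antiviral effectors that are often used as readouts of an interferon response. All 3 Ifit genes, whose proteins bind viral RNA, passed the test as lower in MEL, where 36.9% of all genes did. Ifit1 was at 4.05 and 4.10 in MEL and 5.22 and 5.16 in ES-EP cells, 2.17-fold lower (-1.12 ± 0.08, adjusted p = 3.17e-05), and after quantile normalization or cyclic loess it was lower by less than 2-fold (-0.91 and -0.90). Ifit2 was at 5.96 and 6.26 in MEL and 6.68 and 6.62 in ES-EP cells (-0.54, adjusted p = 0.00574). Ifit3 was at 3.97 and 4.07 in MEL and 4.48 and 4.73 in ES-EP cells (-0.58, adjusted p = 0.00297). These 3 genes thus went the opposite way to Ifitm2 and Ifitm3 in the same arrays, at a much smaller size.

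Of the 5 oligoadenylate synthetase genes and their relatives, 3 passed the test as higher in MEL and 0 as lower, beside the same shares of all genes, 21.8% and 36.9%. Oasl1, which encodes a relative without synthetase activity, was at 8.14 and 8.18 in MEL and 6.72 and 6.98 in ES-EP cells, 2.48-fold higher (1.31 ± 0.11, SE, n = 2 per group, adjusted p = 4.93e-05). Its neighbour Oasl2 was at 5.76 and 5.65 against 5.73 and 5.64, with overlapping groups and a difference of 0.02 (95% interval -0.19 to 0.23). Oas2 and Oas3, which make the messenger that switches on RNase L, were higher by 0.44 and 0.45 (adjusted p = 0.00333 and 0.00329), while Oas1a differed by -0.03 (adjusted p = 0.757). Of the MX genes, GTPases that trap viral particles, Mx1 was higher by 0.58 (adjusted p = 0.00178) at low values of 3.65 to 4.36, and Mx2 did not pass (-0.34, adjusted p = 0.0569).

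Cmpk2 and Ifi27 had the largest differences outside the IFITM family. Cmpk2, a nucleotide kinase of mitochondria, was at 7.51 and 7.89 in MEL and 4.16 and 4.0 in ES-EP cells, 12.3-fold higher in MEL (3.62 ± 0.14, SE, n = 2 per group, adjusted p = 1.19e-06). Ifi27, which encodes a small hydrophobic protein, was at 8.22 and 8.24 in MEL and 5.09 and 5.12 in ES-EP cells, 8.74-fold higher (3.13 ± 0.08, adjusted p = 2.37e-07). Cmpk2 adjoins Rsad2, the gene of the antiviral enzyme viperin, with which it is often induced. Rsad2 was at 6.40 and 6.08 in MEL and 5.78 and 5.87 in ES-EP cells, a difference of 0.41 (adjusted p = 0.0203) that did not pass without MEL culture A or ES-EP culture A (adjusted p up to 0.0838).

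Genes of ADP-ribosylation formed a further block of higher neighbours. Parp14 was at 7.12 and 7.45 in MEL and 5.90 and 5.82 in ES-EP cells, 2.69-fold higher (1.43 ± 0.12, adjusted p = 5.81e-05). Parp9 was at 6.36 and 6.25 in MEL and 5.47 and 5.15 in ES-EP cells, and its difference of 0.997 ± 0.12 (adjusted p = 0.000394) lay just under the 2-fold line. It crossed that line after quantile normalization (1.06), centring (1.06) and cyclic loess (1.16). Dtx3l, the ubiquitin ligase that works in a complex with PARP9 and lies between these genes, was 4.98-fold higher (2.32 ± 0.11, adjusted p = 4.45e-06).

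The remaining induced genes differed little or were lower. Ifi35, whose product stabilises other interferon-induced proteins, was at 8.07 and 8.31 in MEL and 8.88 and 8.84 in ES-EP cells (-0.67, adjusted p = 0.00117). Samhd1, which breaks down the building blocks of DNA, was lower by a difference of -0.51 (adjusted p = 0.00204). Usp18, Isg20, Bst2, Xaf1, Rtp4 and Gbp3 did not pass. In all, the 18 genes that did not pass had differences of -0.34 to 0.18, and their 95% intervals stayed within -0.65 to 0.41.

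The promoters of 4 other members are shown for comparison. Cmpk2 was called higher in MEL, as Ifitm2 and Ifitm3 were, while Ifit1, Oas1a and Rsad2 were not. Ifit1 (chr19:34640639-34640918, plus strand) was lower in MEL and Oas1a (chr5:120907496-120907775, minus strand) did not pass. Rsad2 (chr12:26456423-26456702, minus strand) and Cmpk2 (chr12:26468965-26469244, plus strand) are neighbours whose differences were far apart. The stretch and the capitals are as above.
Ifit1: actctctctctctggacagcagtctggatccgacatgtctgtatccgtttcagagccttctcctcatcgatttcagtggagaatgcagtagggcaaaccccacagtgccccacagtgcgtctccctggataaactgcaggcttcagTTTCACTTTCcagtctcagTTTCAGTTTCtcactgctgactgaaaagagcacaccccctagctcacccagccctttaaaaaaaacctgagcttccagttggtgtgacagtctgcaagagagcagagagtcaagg
Oas1a: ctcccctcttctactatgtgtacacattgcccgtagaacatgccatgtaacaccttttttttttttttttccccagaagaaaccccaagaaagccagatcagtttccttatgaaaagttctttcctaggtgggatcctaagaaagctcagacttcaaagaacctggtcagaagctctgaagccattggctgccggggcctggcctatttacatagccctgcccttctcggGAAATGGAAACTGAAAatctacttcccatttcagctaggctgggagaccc
Rsad2: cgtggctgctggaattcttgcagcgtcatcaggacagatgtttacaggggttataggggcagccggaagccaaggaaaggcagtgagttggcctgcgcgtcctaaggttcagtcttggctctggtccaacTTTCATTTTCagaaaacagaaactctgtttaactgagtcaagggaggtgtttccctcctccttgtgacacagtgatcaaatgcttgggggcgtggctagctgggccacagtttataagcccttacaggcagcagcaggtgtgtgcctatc
Cmpk2: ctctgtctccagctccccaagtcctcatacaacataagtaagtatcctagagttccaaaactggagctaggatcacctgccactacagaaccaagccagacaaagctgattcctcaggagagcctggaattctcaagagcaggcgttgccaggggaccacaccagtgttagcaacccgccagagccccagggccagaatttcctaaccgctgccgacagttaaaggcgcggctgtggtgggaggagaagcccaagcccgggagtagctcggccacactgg
Ifit1 and Oas1a have 2 matches each, which overlap in Oas1a, Rsad2 has 1, and in the window of Cmpk2, the gene with the 12.3-fold difference, the ISRE letters do not occur.

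Matches to the ISRE letters occurred in genes called higher, in genes called lower and in genes not called. RefSeq promoter windows of 300 bases, from 250 before to 50 after the start, were on hand for 37 of the 47 genes. Of these 16 held a match on either strand, against 3.98% of the 26994 genes with a window. Of the genes called higher, 4 of 8 with a window held one, namely Ifitm2, Ifitm3, Ifih1 and Ddx58, and of those not called, 9 of 24. Of those called lower, 1 of 2 did. The GAS letters TTCNNNGAA were found in 13 of the 37 genes, 5 of which also held the ISRE letters, against 9.55% of all genes. The matches of both motifs overlapped in 2 windows. A match describes letters only, and nothing here shows that a factor was bound.

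**Figure D4:**
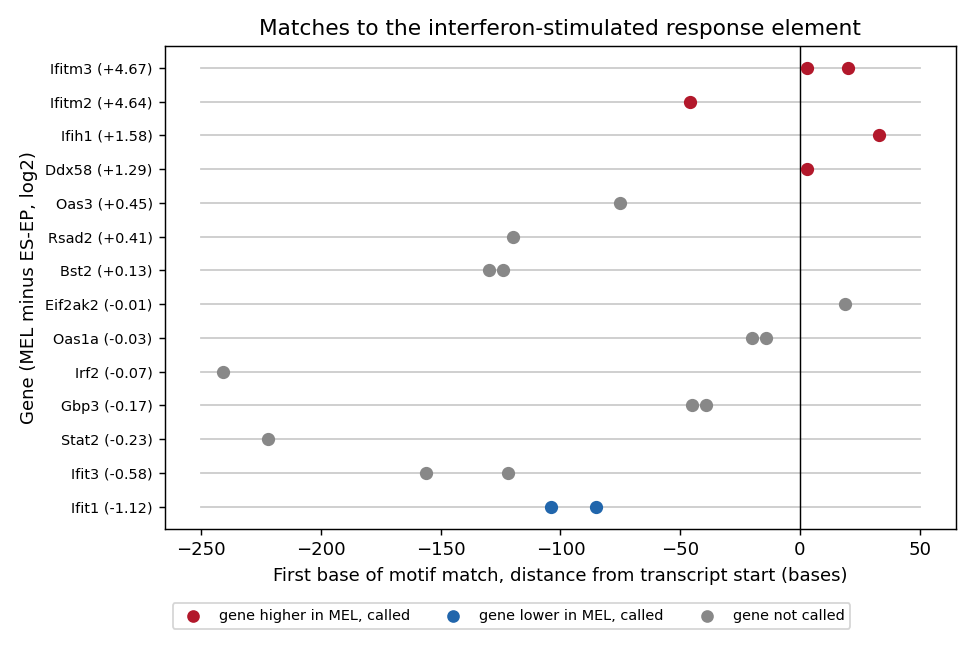
Places of the ISRE matches (horizontal axis, bases from the transcript start) in the 14 measured genes that hold one, ordered by their MEL minus ES-EP difference (log2, in brackets). Red genes were called higher in MEL, the blue one lower and grey ones were not called. The genes with a match had differences from 4.67 for Ifitm3 to -1.12 for Ifit1.

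Of 78 further genes of the interferon pathway, from ligands and kinases to induced GTPases, 66 were measured, and 11 (16.7%) were called higher and 4 (6.06%) lower, against the 7.38% and 4.93% of all genes given above. Without the fold criterion 22 were higher (33.3%, against 21.8% of all genes) and 25 lower (37.9%, close to the 36.9% of all genes). The 5 with the largest higher calls were all induced genes. Parp12, an ADP-ribosyltransferase, was 8.56-fold higher in MEL, at 7.96 and 8.20 against 4.95 and 5.02 in ES-EP cells. Lgals3bp, a secreted glycoprotein, was 6.48-fold higher, the ligase gene Herc6 4.99-fold, Dtx3l 4.98-fold and the nuclear body gene Sp100 3.99-fold.

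The 4 lower calls were Il10rb, the nucleotidase Nt5c3 (2.56-fold) and the Schlafen genes Slfn2 (2.46-fold) and Slfn9 (2.21-fold). Nt5c3 encodes a pyrimidine nucleotidase that is abundant in maturing red cells, and it was at 9.09 and 9.18 in MEL and 10.54 and 10.45 in ES-EP cells. Slfn9 was lower by less than 2-fold after quantile normalization (-0.95) and cyclic loess (-0.92). Adjusted p-values of these 9 genes ran from 6.48e-07 for Lgals3bp to 0.000158 for Slfn2.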

How the data were processed

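RNA from 2 MEL and 2 ES-EP cultures was hybridised to the Affymetrix GeneChip Mouse Gene 1.0 ST. The deposited log2 values were made by the authors with RMA in GeneSpring GX, per the labels. Their range shows the log2 scale. For software version, filters and the set of arrays normalized jointly, nothing is stated in the labels. RMA can leave a floor, so folds against dim genes may be understated, which was not tested. Of 35557 features 6613 control features were left out. Symbols came from a platform annotation updated through Entrez identifiers with RefSeq GRCm38.p6, where 21698 of 21789 features with 1 symbol matched. Members and lists were chosen with earlier results of these data known. Groups were compared with limma 3.58.1 (lmFit, eBayes) in R 4.3.3, with Benjamini-Hochberg adjustment over 28944 features, 2 residual and 5.15 prior degrees of freedom. An exact permutation test of 2 against 2 arrays cannot reach 0.05. Called genes, IFITM genes and receptors are given with all values, and the others by range and by the members of each role that passed or bear on it. Alternatives were other scalings (quantile, centring, cyclic loess), priors, filters on dim features, the mean of a gene's features, a replicate block, fold criteria and each culture left out. Simulated data for MEL against ES-EP had 28944 features, 50 of them changed by each size. There 98.0% of 1.5-fold and 100.0% of 2-fold changes passed adjusted p under 0.05 in the right direction. By that test alone 16 unchanged features passed. The 2-fold criterion was not applied there, so recovery by the rule for calls was not measured. The simulated noise was independent between features, and far fewer features were changed than passed in the real arrays. The number of arrays limits the precision.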

Additional observations from a re-analysis of the deposited data

How the results depend on the processing

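The count of 10 higher members was 8 to 11 over the alternatives that kept the 2-fold rule, 10 to 11 with any culture left out, and 12 at 1.5-fold. The count of 2 lower members was 1 after quantile normalization, 1 after cyclic loess and 1 with features under the median left out, which removes Ifit1, and it was 2 with any culture left out. With no fold criterion the counts were 18 and 8. The median difference of 0.00 became 0.15 after cyclic loess, 0.13 with features under the median left out and 0.13 with features required to reach 5 on 2 arrays, and it was -0.0031 to 0.0521 with a culture left out. Of the 12 called genes, 11 kept their call under each alternative they entered, and Ifit1 fell below 2-fold after quantile normalization and cyclic loess. Irf1 changed sign to 0.56 with the mean of its features. Parp9 passed 2-fold also without MEL culture B (1.05) or ES-EP culture A (1.16), and Irf7 without MEL culture A (1.01). The duplicates share letters only (correlation of deviations 0.11), and with the letter as a replicate block the counts stayed 10 and 2. Dim features, with no detection calls, limit what can be said of Ifitm6, Ifit3, the MX genes, Xaf1, Rtp4 and Gbp3. The values of Ifit1 in MEL (4.05 and 4.10) were similarly low, which limits its lower call.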

Other observations

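Neighbouring genes of induced families outside the 47 also differed from each other. The Schlafen cluster holds genes linked to growth arrest and antiviral defence of immune cells. There Slfn2 and Slfn9 were called lower in MEL (-1.30 and -1.14), while Slfn5 was higher by 0.59 (limma, adjusted p = 0.00118) and Slfn8 by 0.42 (adjusted p = 0.0238). Slfn9 was dim, at 4.41 and 4.20 in MEL and 5.41 and 5.49 in ES-EP cells. So were Slfn5 (5.04 and 5.18 against 4.54 and 4.49) and Slfn8 (4.68 and 4.35 against 4.04 and 4.16). With no detection calls, this limits the contrast between these neighbours. Among guanylate-binding proteins, GTPases that attack vacuoles holding pathogens, Gbp7 was 3.23-fold higher in MEL, at 8.51 and 8.72 against 6.80 and 7.05. Its neighbour Gbp5 was at 3.44 and 3.43 against 3.77 and 3.87, and Gbp9 of another cluster was lower by a difference of -0.71 (adjusted p = 0.000513). These genes were picked after their values were seen. Apobec3, which restricts retroviruses, was 3.49-fold higher in MEL on its brighter feature, at 7.79 and 7.96 against 6.00 and 6.14, but its second feature differed by 0.22 (adjusted p = 0.0872), so the features disagree and the gene's difference is not settled.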
